A study of Mus musculus with 21 samples.

Results

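The microglia and macrophage genes described here are 10 genes chosen by name: Aif1, Csf1r, Cx3cr1, P2ry12, Tmem119, Trem2, Tyrobp, C1qa, C1qb and C1qc. All 10 were found in the 3 deposited gene tables, which hold 42760, 42760 and 40770 genes for the Peril, Fendrr and linc-Brn1b strains and share 34086 gene symbols. The tables come from RNA-seq of mice in which a long intergenic noncoding RNA (lincRNA) was deleted and replaced by a lacZ reporter cassette, so that every knockout group also carries lacZ, in homozygous animals and their wild-type littermates. In the Peril strain (linc-Sox2-/- in the labels, against linc-Sox2+/+) whole brain was taken at E18.5. In the Fendrr strain (linc-Foxf1a-/- against linc-Foxf1a+/+) lung was taken at E14.5. In the linc-Brn1b strain (linc-Brn1b-/- against linc-Brn1b+/+) telencephalon was taken at E13.5 and at E15.5, and whole brain at P7. Each of the 10 groups had 2 libraries, except the E15.5 linc-Brn1b knockout with 3 by the labels, and the ES cells behind the strains were a 129S6SvEv and C57BL/6N hybrid.

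Microglia are the resident macrophages of the brain. They arise from yolk sac progenitors, enter the embryonic brain, and depend on signalling through the receptor Csf1r for survival. They carry the adaptor Tyrobp with its receptor partner Trem2, the fractalkine receptor Cx3cr1 and, as they mature, P2ry12 and Tmem119, and they are the main source of the C1q complement subunits in the brain. Csf1r, Tyrobp, Aif1 and C1q are also made by macrophages elsewhere, including the lung, so in a bulk sample these genes read all macrophages in the dissected piece. In bulk tissue, fewer cells of a type and less RNA per cell cannot be told apart.

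The deposited tables give 1 pooled value per group in FPKM (fragments scaled by transcript length and by the number of mapped fragments), so there is no spread between animals and no test of genotype. A difference below is knockout minus wild-type on the log2(FPKM + 0.1) scale, which understates the change of low genes. Genes with a mean of both groups of at least 1 FPKM were kept, and a gene is called higher or lower when it passes 1.5-fold. A gene under 1 FPKM in 1 group can thus be kept only through its higher value in the other group. Among the genes named above this held for Aif1 at E13.5, Trem2 from E13.5 to E15.5 in knockout groups, and Tmem119 from E15.5 to P7. It also held for some genes of other lists, such as P2ry6 at P7. Beside the first count of each comparison stands the share of all kept genes called in that direction, as the background for its later counts. Depth is unknown from these values, and no interval can be given.

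Certain facts of the whole series touch these genes. In each of the 5 comparisons the wild-type and knockout groups differed in the Y-linked genes. Eif2s3y, for instance, was 0.0184 FPKM in the group labelled wild-type and 13.2 FPKM in the group labelled knockout of the Peril strain. It was 13.51 against 0 FPKM in the Fendrr strain. In the linc-Brn1b strain it was 16.5 against 0.00723 FPKM at E13.5, 0.00554 against 9.94 FPKM at E15.5 and 0.00727 against 11.7 FPKM at P7. Sex and genotype therefore cannot be told apart in any comparison below. The linc-Brn1b transcript went from 1.6, 2.5 and 0.799 FPKM in the wild-type groups at the 3 ages to 0 in each knockout group, and linc-Cox4nb-4, the table entry covering Fendrr, from 38.4 to 0.0450 FPKM. In the Peril strain the entry overlapping the locus, linc-Atp11b-4, was 0.0109 FPKM in the group labelled wild-type and 4.65 FPKM in the group labelled knockout, which runs against a deletion of that locus in the second group, though the entry is 1 value for the whole gene. The paper, in contrast, reports that Peril levels measured by RT-PCR in brains of this strain bore out the deletion. For that strain the groups are called by their labels below.

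On the mm9 assembly, with gene models of GENCODE vM1, C1qb (chr4:136436044-136442102), C1qc (chr4:136445719-136448980) and C1qa (chr4:136451832-136454718) lie next to each other on the minus strand of chromosome 4. They encode the 3 chains of C1q, the molecule that starts the classical complement pathway. P2ry12 (chr3:59020193-59066753, minus strand), a purinergic receptor that steers microglial processes towards ATP and ADP, lies within the gene Med12l. No stranded counting was stated, so reads shared between P2ry12 and Med12l are possible. Trem2 (chr17:48485726-48493472, plus strand), Tyrobp (chr7:31198807-31202596, plus strand), Aif1 (chr17:35307936-35313013, minus strand), Cx3cr1 (chr9:119957811-119977400, minus strand) and Tmem119 (chr5:114243738-114250525, minus strand) overlap no other gene in that annotation.

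The promoters of C1qb and C1qc, which moved in the same direction in every knockout comparison, and of P2ry12, which moved against them in several, are shown as RefSeq gives them on GRCm38.p6, from 250 bases before to 50 bases after the start and read 5′ to 3′ on the gene's strand. RefSeq windows were used for 6 of the 10 genes, namely Aif1, Cx3cr1, P2ry12, Trem2, C1qb and C1qc. None was at hand for Tmem119, Tyrobp and C1qa, and Csf1r was not looked up. Capitals mark GAGGAA or its reverse complement TTCCTC, letters found in sites bound by the myeloid factor PU.1, searched on both strands. The C1qb window is chr4:136886151-136886450, the C1qc window chr4:136892865-136893164 and the P2ry12 window chr3:59262936-59263235, all 3 on the minus strand.
C1qb: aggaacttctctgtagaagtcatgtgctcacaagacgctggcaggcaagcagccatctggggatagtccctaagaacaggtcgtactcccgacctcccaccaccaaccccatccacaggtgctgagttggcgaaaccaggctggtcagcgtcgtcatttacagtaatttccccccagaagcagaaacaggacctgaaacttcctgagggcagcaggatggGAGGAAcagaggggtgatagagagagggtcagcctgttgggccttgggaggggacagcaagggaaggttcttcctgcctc
C1qc: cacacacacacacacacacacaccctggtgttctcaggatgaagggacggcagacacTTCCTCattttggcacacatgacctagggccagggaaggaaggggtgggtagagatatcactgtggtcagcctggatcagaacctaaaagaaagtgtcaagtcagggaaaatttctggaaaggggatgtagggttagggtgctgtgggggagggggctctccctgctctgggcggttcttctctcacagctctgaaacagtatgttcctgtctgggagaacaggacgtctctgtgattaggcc
P2ry12: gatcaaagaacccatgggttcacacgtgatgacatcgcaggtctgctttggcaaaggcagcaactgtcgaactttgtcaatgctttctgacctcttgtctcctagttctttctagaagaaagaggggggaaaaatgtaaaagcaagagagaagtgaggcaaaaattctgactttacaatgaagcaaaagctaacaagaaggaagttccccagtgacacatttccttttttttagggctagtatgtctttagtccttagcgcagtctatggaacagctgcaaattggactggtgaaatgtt
The 6 letters were present in 4 of the 6 windows, with the first base of the match 7 bases before the start in Aif1, 30 in C1qb, 40 in Trem2 and 193 in C1qc. The 6 letters were not in the P2ry12 and Cx3cr1 windows, and shorter matches were not searched for. Of 32851 promoter windows of the same length, 28.3% held them, so a match is a description of these letters and no evidence of binding.

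Csf1r, the receptor for the growth factors Csf1 and Il34, lies at chr18:61265226-61291803 of mm9 on the plus strand and overlaps the end of Hmgxb3, so shared reads are possible there too.

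The summed level of the 10 genes was lowest in the embryonic telencephalon. Because the 3 tables were normalized separately, levels set across strains carry that limit. The summed level of the 10 genes was 31.2 FPKM in the wild-type E13.5 telencephalon and 31.9 FPKM at E15.5. It was 106 FPKM in P7 brain, 79.5 FPKM in E18.5 brain and 109 FPKM in E14.5 lung. C1qb and C1qc had the highest values of the 10 in every brain group but the E13.5 knockout, where Csf1r was first. The 3 C1q subunits together made up between 40.7% and 57.8% of the summed level in all 10 groups, and within a group the highest of the 3 subunits was between 1.22 and 1.81 times the lowest.

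In wild-type E13.5 telencephalon the order from the highest level was C1qb at 5.51 FPKM, C1qc at 5.32, Csf1r at 4.58, C1qa at 4.28, Tyrobp at 3.995, Cx3cr1 at 2.67, P2ry12 at 1.48, Aif1 at 1.39, Trem2 at 1.02 and Tmem119 at 0.985 FPKM. In wild-type P7 brain it was C1qc at 19.5 FPKM, C1qb at 18.2, C1qa at 16.0, Tyrobp at 15.9, Csf1r at 12.2, P2ry12 at 7.49, Cx3cr1 at 6.22, Trem2 at 4.79, Aif1 at 3.42 and Tmem119 at 2.26 FPKM. With no spread between animals, it cannot be said which neighbours in either order differ.

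The lung held the same macrophage genes with a different balance of the genes used to mark microglia. Tyrobp, the signalling adaptor, was highest there at 22.0 FPKM in the wild-type group. Tmem119, a membrane protein used as a microglial marker in the adult brain and also made by osteoblast-lineage cells, reached 13.2 FPKM in the wild-type lung and 14.99 FPKM in that of the knockout, against a range of 0.610 to 4.35 FPKM in the 8 brain groups. P2ry12 was at its lowest in lung, with 1.38 and 1.14 FPKM, against 1.48 to 12.2 FPKM in the brain groups. A high Tmem119 value in this lung was therefore not accompanied by a high P2ry12 value.

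**Figure D1:**
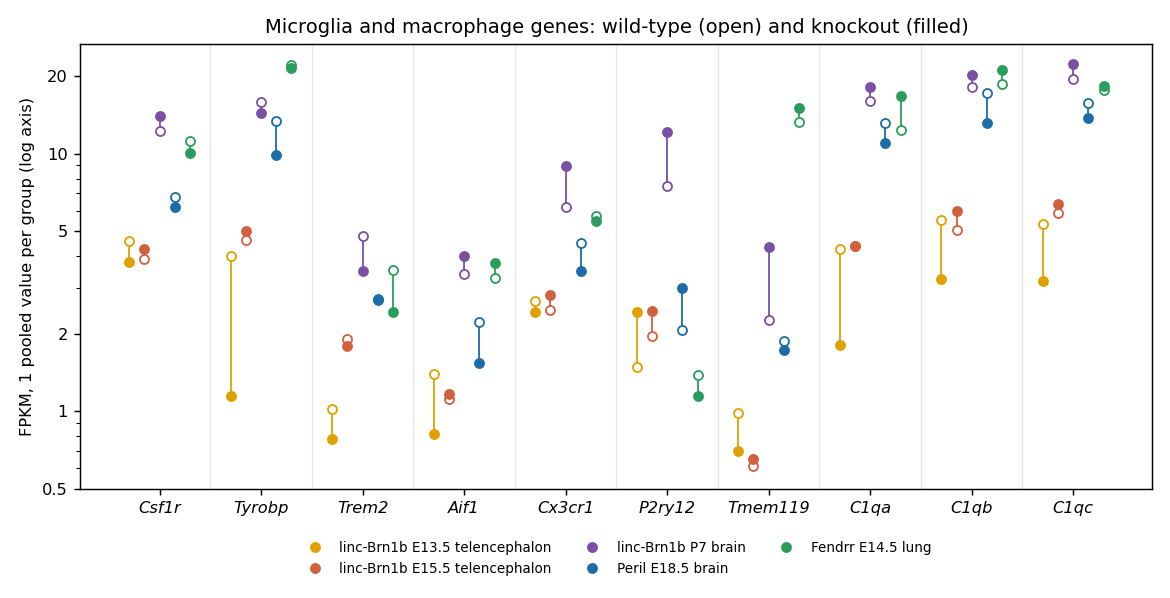
Level of each of the 10 genes in FPKM (log axis) in the wild-type (open) and knockout (filled) group of each comparison, joined by a line; each point is 1 pooled value. Tmem119 in lung sits between 13.2 and 14.99 FPKM while P2ry12 in lung sits between 1.14 and 1.38 FPKM, and most genes are lowest in the embryonic telencephalon.

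The linc-Brn1b groups at 3 ages give the genes across development within 1 table. The summed level of the 4 Y-linked genes changed between E13.5 and E15.5, from 49.2 to 0.00662 FPKM in wild-type groups. In knockout groups it went from 0.0133 to 21.0 FPKM, so age and sex cannot be told apart in that step. Between E13.5 and E15.5 in wild-type telencephalon only Trem2, the lipid-sensing receptor, was called, going from 1.02 to 1.90 FPKM (difference 0.84), which is 1 of 9 genes kept against 11.8% of all genes called higher. In the knockout groups 5 of 8 genes kept were called higher over the same interval against 12.8% of all genes. In the length classes that hold these 5, 61.5% of genes with a longest transcript under 1000 bp and 27.4% of those from 1000 to 1500 bp were called. Tyrobp went from 1.15 to 4.999 FPKM (2.03), C1qa from 1.81 to 4.39 FPKM (1.23) and Trem2 from 0.776 to 1.79 FPKM (1.11), and C1qb and C1qc were also called, with differences of 0.85 and 0.96. Set against the median of its length class, C1qb had 0.56 and was no longer past the fold. These starting values are those of the E13.5 knockout group, described below.

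From E15.5 telencephalon to P7 brain all 10 genes were called higher in both genotypes. The background was 25.9% of all genes in wild-type and 26.8% in knockout. The median difference of the 10 genes was 1.72 in each genotype, while the median over all kept genes was -0.11 in each. In wild-type groups P2ry12 had the greatest difference, 1.88, followed by C1qa with 1.85. In knockout groups Tmem119 had 2.57 and P2ry12 2.26, while Trem2 had the smallest, 0.93. The tissue dissected changed together with age in this step, from telencephalon to whole brain, and the part of each cannot be told apart.

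**Figure D2:**
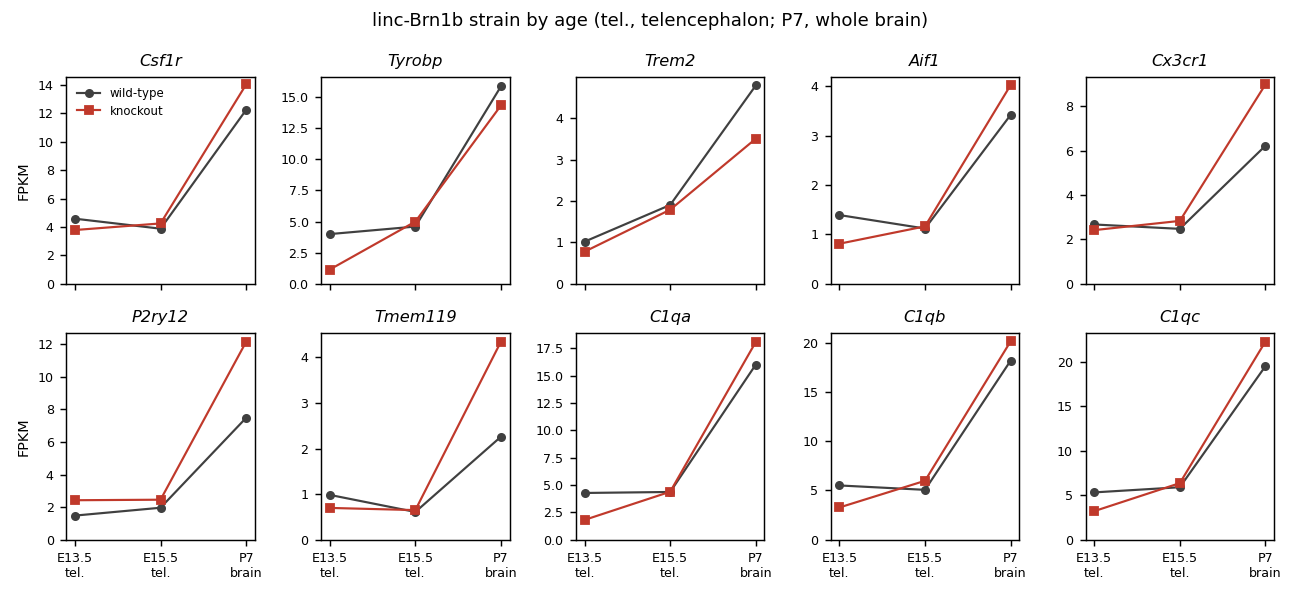
Level in FPKM (linear axes from 0, a separate scale for each gene) of the 10 genes in wild-type (circles) and knockout (squares) groups of the linc-Brn1b strain at E13.5, E15.5 and P7, 1 pooled value per point. All 10 genes are higher at P7 than at E15.5 in both genotypes, and the genotypes are close at E15.5 and apart at E13.5 for Tyrobp and C1qa and at P7 for P2ry12 and Tmem119.

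At E13.5 most of the genes were lower in the linc-Brn1b knockout group than in the wild-type group. Of 8 genes kept, 5 were called lower, against 6.86% of all genes, and 1 was called higher, against 3.18%. Tyrobp went from 3.995 to 1.15 FPKM, a difference of -1.72. C1qa went from 4.28 to 1.81 FPKM (-1.19), C1qb from 5.51 to 3.27 FPKM (-0.73) and C1qc from 5.32 to 3.21 FPKM (-0.71). Aif1, a cytoplasmic calcium-binding protein known as Iba1, went from 1.39 to 0.811 FPKM (-0.71). Csf1r and Cx3cr1 did not pass the fold, with 4.58 against 3.79 FPKM (-0.27) and 2.67 against 2.42 FPKM (-0.14). P2ry12 was called in the other direction, going from 1.48 to 2.43 FPKM (0.67). Trem2 and Tmem119 were under the minimum mean, with 1.02 against 0.776 FPKM and 0.985 against 0.698 FPKM. The median difference of the 8 genes was -0.71 and that of all kept genes 0.06.

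The E13.5 comparison differed by transcript length over all genes, and the members called lower have short transcripts. Taking the longest annotated transcript of each gene, 641 kept genes under 1000 bp had a median difference of -0.68 and 58.0% of them were called lower. Genes from 1000 to 1500 bp had a median of -0.28, those from 1500 to 2500 bp -0.06, those from 2500 to 4000 bp 0.07 and those of 4000 bp and over 0.16. In the other 4 comparisons the class medians stayed between -0.09 and 0.13. Tyrobp measures 564 bp, Aif1 875 bp, C1qa 1040 bp, C1qb 1088 bp and C1qc 1203 bp, whereas Csf1r measures 4701 bp, Cx3cr1 3729 bp and P2ry12 2338 bp. Set against the median of its own length class, a comparison chosen after the data were seen, Tyrobp remained at -1.04 and C1qa at -0.91, both past the fold. C1qb at -0.45, C1qc at -0.43 and Aif1 at -0.03 were no longer past it, while Csf1r moved to -0.43, Cx3cr1 to -0.20 and P2ry12 to 0.74. After this centring 2 of the 8 genes were lower past the fold and the median was -0.43.

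**Figure D3:**
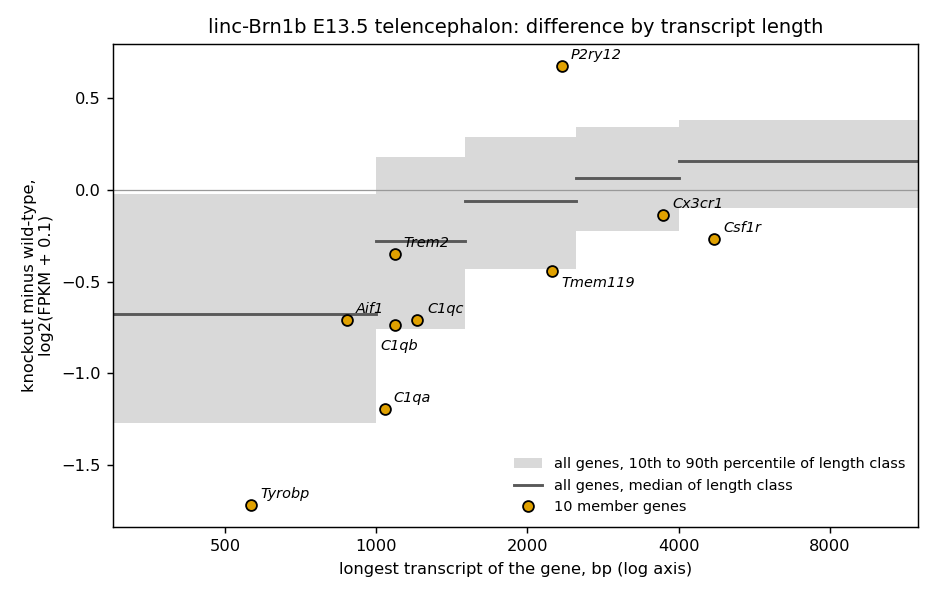
Knockout minus wild-type difference on the log2(FPKM + 0.1) scale in E13.5 telencephalon against the length of the longest transcript in bp (log axis) for the 10 genes (points), with the median (line) and the 10th to 90th percentile (band) of all kept genes in each length class. The median of all genes goes from -0.68 under 1000 bp to 0.16 at 4000 bp and over; Tyrobp, C1qa, Csf1r and Tmem119 lie under the band of their class and P2ry12 above its own.

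Most other macrophage genes kept were also lower in the E13.5 knockout group. Of 6 kept genes of border and tissue macrophages, the macrophages of meninges, vessels and other tissues, all 6 were called lower against the same 6.86% of all genes, with a median difference of -0.89. Dab2, an endocytic adaptor, went from 5.97 to 3.45 FPKM, Pf4, a chemokine of megakaryocytes that these macrophages also make, from 4.59 to 0.997 FPKM, F13a1 from 2.48 to 1.15 FPKM and Lyve1, a hyaluronan receptor, from 1.48 to 0.893 FPKM. Of 9 kept genes expressed by macrophages in general, 5 were called lower, among them Lyz2, lysozyme, at 2.71 against 0.946 FPKM, and Fcer1g, an adaptor of Fc receptors, at 3.37 against 1.64 FPKM. Laptm5, a lysosomal protein, was at 5.39 against 3.58 FPKM and within the fold. In the other direction lay 2 of the 9, within the fold and named for that reason. They were Cd68 at 2.42 against 2.71 FPKM and Mpeg1 at 2.26 against 2.38 FPKM. Set against the medians of their length classes, all 6 border and tissue macrophage genes were still lower past the fold, and 3 of the 9 general macrophage genes were. With a pseudocount of 1 FPKM 2 general macrophage genes were called lower, and at 2-fold 1, while border and tissue macrophage genes gave 4 and 3. With a minimum of 5 FPKM no gene of either list was called lower. Of 7 erythroid genes kept 4 were called lower, with a summed level over the list of 1440 against 692 FPKM. All 10 endothelial genes were below 0 and 2 of them were called, with summed levels of 84.7 and 57.7 FPKM. Neither the erythroid nor the endothelial list was set against its length classes. Of all kept genes under 1000 bp, 58.0% were called lower in this comparison. The part of the erythroid and endothelial levels in the differences of the 10 genes was not tested.

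At E15.5 none of the 10 genes passed the fold between knockout and wild-type telencephalon. Few genes did anywhere, with 0.303% of all kept genes called higher and 0.444% lower. Of 9 genes kept, 8 were above 0 and the median difference was 0.12. Tyrobp was at 4.599 and 4.999 FPKM, C1qa at 4.37 and 4.39 FPKM, and C1qb at 5.06 and 5.98 FPKM in the wild-type and knockout group. Csf1r was at 3.88 and 4.25 FPKM. The greatest difference belonged to P2ry12, with 1.96 against 2.46 FPKM (0.31). The 5 genes called lower at E13.5 were each above 0 at this age, C1qa by 0.01. Choroid plexus genes stood apart in this comparison. All 5 kept were lower in the knockout group, and the summed level of the list was 248 against 5.63 FPKM, while the 10 endothelial genes summed to 61.4 and 63.2 FPKM.

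At P7 the genes that mark mature microglia were higher in the knockout brain, and the C1q genes and Tyrobp stayed within the fold. Tmem119 went from 2.26 to 4.35 FPKM (0.91) and P2ry12 from 7.49 to 12.2 FPKM (0.69), which made 2 of 10 genes called higher against 3.43% of all genes, and none lower against 3.96%. Cx3cr1, the receptor through which neurons and microglia communicate by fractalkine, was next with 6.22 against 8.98 FPKM (0.52), within the fold. Csf1r was at 12.2 against 14.03 FPKM (0.20). C1qa, C1qb and C1qc had differences of 0.17, 0.15 and 0.19. Tyrobp, with 15.9 against 14.3 FPKM (-0.15), and Trem2, with 4.79 against 3.51 FPKM (-0.44), lay below 0. The ratio of P2ry12 to Tyrobp was 0.472 in the wild-type and 0.848 in the knockout group, and that of Trem2 to Tyrobp 0.302 and 0.245.

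Some ligands and further receptors were also higher in the knockout group at P7. Il34, a Csf1r ligand made by neurons, was at 7.51 FPKM in the wild-type and 14.9 FPKM in the knockout group (0.97), and Cx3cl1, the fractalkine ligand of Cx3cr1, at 68.4 and 112 FPKM (0.71). These 2 of 5 ligand genes were called higher, against 3.43% of all genes. Csf1, the other Csf1r ligand, was at 3.47 and 2.90 FPKM, Tgfb1 at 1.66 and 1.76 FPKM and Cd200 at 154 and 142 FPKM. Of 11 kept genes of a further list of microglial genes, 3 were called higher, against the same share. They were Selplg at 1.55 against 3.78 FPKM, P2ry13 at 1.53 against 3.06 FPKM and P2ry6 at 0.702 against 1.42 FPKM, and they are named because they were called, chosen after their values were seen. Among the highest of that list, Cst3 at 543 against 676 FPKM, Olfml3 at 5.66 against 4.83 FPKM and Ctss at 12.2 against 14.49 FPKM stayed within the fold.

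Some complement genes other than C1q were lower at P7. Serping1, the C1 inhibitor, was at 5.99 against 3.88 FPKM (-0.61) and C4b at 1.87 against 1.19 FPKM (-0.61), which made 2 of 4 kept genes lower, against 3.96% of all genes. Itgam, the alpha chain of complement receptor 3, was at 1.77 against 2.38 FPKM (0.41). Oligodendrocyte genes moved in the same comparison. All 5 were lower in the knockout group, with summed levels of 504 and 283 FPKM, and 3 of 6 kept choroid plexus genes were lower, with sums over the list of 459 and 313 FPKM. Endothelial sums were 92.2 and 90.5 FPKM. The part of the oligodendrocyte and choroid plexus levels in the differences of the 10 genes was not tested.

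In E18.5 brain of the Peril strain 9 of the 10 genes were below 0 in the group labelled knockout, all within the fold. The background was 1.95% of all genes called higher and 1.4% lower. Tyrobp was at 13.4 against 9.88 FPKM (-0.43), C1qb at 17.1 against 13.1 FPKM (-0.38), Cx3cr1 at 4.48 against 3.50 FPKM (-0.35) and Aif1 at 2.22 against 1.53 FPKM (-0.51). Trem2 was at 2.72 against 2.71 FPKM. P2ry12 was again the exception, with 2.06 against 2.996 FPKM (0.52). The median difference was -0.23 and the summed level 79.5 against 66.4 FPKM. All 10 kept genes of the general macrophage list were below 0 and 4 were called lower, among them Lyz2 at 5.74 against 2.69 FPKM and Fcer1g at 8.35 against 5.26 FPKM. With a pseudocount of 1 FPKM, at 2-fold or with a minimum of 5 FPKM, 1 of them was called. Border and tissue macrophage genes gave 2 of 8 kept lower, with Pf4 at 11.6 against 7.64 FPKM. With a pseudocount of 1 FPKM, at 2-fold, with a minimum of 5 FPKM or centred by transcript length, 1 gene of this list was called. Ptpn6, a phosphatase acting downstream of inhibitory myeloid receptors, was at 1.74 against 1.11 FPKM (-0.61). All 10 endothelial genes were below 0, with sums of 111 and 95.2 FPKM, and choroid plexus sums were 845 and 581 FPKM. All 3 kept erythroid genes were below 0 and 2 were called lower, with sums over the list of 225 and 143 FPKM. Their part in the differences was not tested.

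P2ry12 was higher in the group labelled knockout in all 4 brain comparisons, and of the 8 genes kept in all of them no other kept one direction. For the Peril strain this direction, and every count over the 4 comparisons below, rests on the labels. The linc-Atp11b-4 values run against those labels, while the paper reports the deletion by RT-PCR. Trem2, which was under the minimum at E13.5, was below 0 in all 4, with -0.35 at E13.5, -0.08 at E15.5, -0.44 at P7 and -0.01 in the Peril strain, and at -0.52 in lung. Set against the median of its length class, Trem2 was above 0 in the Peril strain, at 0.04. The P2ry12 differences were 0.67 at E13.5, 0.31 at E15.5, 0.69 at P7 and 0.52 in the Peril strain. Within its transcript-length class it exceeded 99.1%, 99.2%, 98.3% and 98.2% of kept genes in that order. Of 12084 genes kept in all 4 brain comparisons, 1114 (9.22%) were above 0 in each, and 3, with P2ry12 itself, were at or above 0.31 in each. That bound is the smallest P2ry12 value and was chosen after the values were seen. In lung P2ry12 was at 1.38 against 1.14 FPKM (-0.25). Med12l, the gene around P2ry12, differed by 0.07 at E13.5, -0.06 at E15.5, 0.18 at P7, 0.15 in the Peril strain and 0.03 in lung. P2ry13, a further receptor gene of that locus, was above 0 in all 4 brain comparisons, with 0.38 at E13.5, 0.14 at E15.5, 0.96 at P7 and 0.11 in the Peril strain, and under the minimum in all but P7. The part of shared reads, and of the wide span of the P2ry12 entry, was not tested. The Y-linked genes were higher in the knockout group in 3 of these 4 brain comparisons and lower at E13.5, and the part of sex cannot be told apart.

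**Figure D4:**
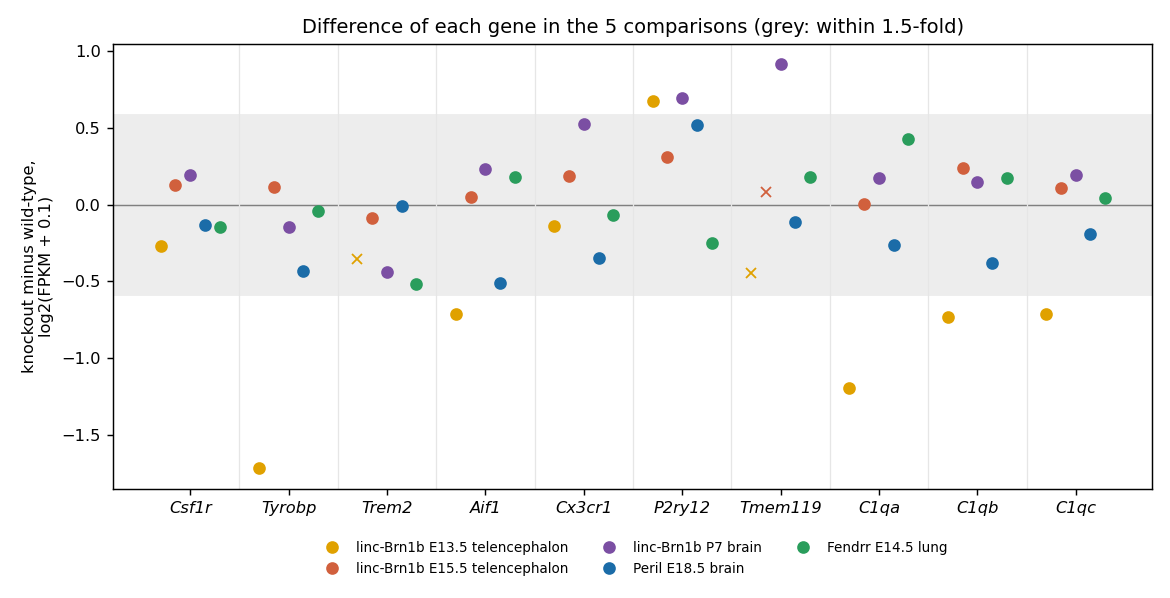
Knockout minus wild-type difference of each of the 10 genes on the log2(FPKM + 0.1) scale in the 5 comparisons; circles are kept genes, crosses are genes with a mean under 1 FPKM, and the grey band is within 1.5-fold. P2ry12 lies above 0 in all 4 brain comparisons and at -0.25 in lung, and Tyrobp and C1qa reach -1.72 and -1.19 at E13.5.

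In E14.5 lung of the Fendrr strain the genes fell evenly on either side of 0. With 5 above and 5 below, none passed the fold, against 2.16% of all genes called higher and 1.66% lower. The median difference was 0.00 and the summed level 109 against 115 FPKM. C1qa was at 12.4 against 16.7 FPKM (0.43) and Trem2 at 3.52 against 2.43 FPKM (-0.52), the widest differences in either direction. Tyrobp was at 22.0 against 21.4 FPKM and Csf1r at 11.2 against 10.1 FPKM. None of 15 general macrophage genes and none of 8 kept border and tissue macrophage genes was called. Other myeloid and non-myeloid genes did differ. All 4 kept mast cell genes were called higher, with sums over the list of 13.6 and 53.4 FPKM. S100a8 and S100a9, granulocyte genes, were at 5.32 against 10.97 FPKM and 5.86 against 10.3 FPKM, and Ccr2, a monocyte chemokine receptor, at 3.31 against 1.72 FPKM. Cardiac muscle genes gave 5 of 5 higher, with sums of 216 and 685 FPKM. The complement gene C2 was at 1.01 against 1.78 FPKM (0.76).

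None of 9 transcription factors of the myeloid lineage was called in any of the 5 comparisons. Sfpi1, the gene for PU.1, was at 0.855 against 0.630 FPKM at E13.5, 0.487 against 0.528 FPKM at E15.5 and 1.65 against 1.85 FPKM at P7. It was at 1.53 against 1.48 FPKM in the Peril strain and 2.53 against 2.35 FPKM in lung, in each pair with the wild-type value first. Irf8 was at 0.587 against 0.619 FPKM at E13.5 and 1.06 against 1.15 FPKM at P7. Of the 6 genes of Trem2 and Tyrobp signalling, between 1 and 4 were kept in a comparison, and Ptpn6 in the Peril strain was the only call among them. Syk, the kinase recruited by Tyrobp, was listed at or near 0 in every group, at most 0.0290 FPKM.

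The likeness of the genes' profiles depended for P2ry12 on the groups taken. Over the 10 groups, the Pearson correlation of log2(FPKM + 0.1) of each gene with the mean profile of the other 9 was 0.98 for C1qc, 0.97 for C1qb and Csf1r, 0.96 for C1qa, Aif1 and Cx3cr1, 0.92 for Tyrobp, 0.89 for Trem2, 0.75 for Tmem119 and 0.32 for P2ry12. Over the linc-Brn1b groups alone, P2ry12 had a correlation of 0.93 with the mean profile of all 10 genes, beside 0.93 for Tyrobp and 0.92 for Trem2, and over all groups one of 0.42. These are descriptions over 10 pooled values from 3 tables, which share tissue and age, and carry no p-value. The genes outside the 10 with the greatest correlation to the mean profile were Hprt (0.99), Acyp2 (0.99), Itm2c (0.99), Extl1 (0.99), Mrps26 (0.99), Lgmn (0.99), Ctss (0.99), Sdf4 (0.99), Serinc3 (0.98) and Snx7 (0.98), among 12713 ranked. Ctss and Lgmn encode lysosomal proteases, and Ctss belongs to the list of microglial genes. With 457 genes at 0.9 or more, a high correlation over these groups is common.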

How the data were processed

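mRNA libraries made from total RNA of the 10 groups were sequenced, and the reads were mapped by the authors with TopHat2 against mm9 and quantified with Cufflinks 2.0.2 and Cuffdiff2, which pooled the libraries of a group into 1 FPKM value per gene. The deposited FPKM values were used as they stand. The tables also hold the authors' own fold changes, test statistics and p- and q-values, which were not used. Cuffdiff2 scales libraries within a table, and the 3 tables were normalized separately. No depth, spread or interval can be recovered from pooled values.

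Samples were grouped by strain, tissue, age and genotype as labelled. Differences were computed in Python 3.11.15 with pandas as log2(FPKM + 0.1), with a minimum mean of 1 FPKM and a 1.5-fold threshold over all genes. No test was run, and the counting step was tested on simulated data. Older symbols were resolved through reference tables. Transcript lengths and positions came from GENCODE vM1, and 88.5% of genes kept at E13.5 had a length. Promoters are RefSeq sequences on GRCm38.p6.

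The members and gene lists were chosen with earlier results of these data known. All 10 members are named, any gene of the ligand, Trem2 and Tyrobp signalling, complement and transcription factor lists may be, and of other lists the 4 genes with the highest mean FPKM, with exceptions stated. Some listed genes are not reported here. The lists of astrocyte, lymphoid, lung epithelium, neuron and phagocytic genes were computed with the others. Alternatives were another pseudocount, minimum, fold and centring, and centring by transcript length.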

Additional observations from a re-analysis of the deposited data

How the results depend on the processing

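No paired analysis was possible because each group is 1 pooled value, and for the same reason no library could be left out. Of 303 recomputed differences of single members, 289 kept their direction and side of the fold, 11 dropped under it, 3 uncalled ones changed sign, and 0 called ones did. With a pseudocount of 1 FPKM, 0 members were higher at E13.5, the E13.5 median was -0.493, 0 were higher from E13.5 to E15.5 in wild-type groups, the knockout median of that step was 0.68, and the E15.5 to P7 medians were 1.48 in wild-type and 1.56 in knockout groups. At 2-fold, 2 members were lower and 0 higher at E13.5, 0 were higher at P7, and 0 in wild-type and 3 in knockout groups were higher from E13.5 to E15.5. With no minimum, the E13.5 median was -0.58, and from E13.5 to E15.5 the wild-type groups gave 1 member lower, Tmem119, and a median of -0.0384, and the knockout groups a median of 0.66. With a minimum of 5 FPKM, 1 member was higher at P7, 0 were higher from E13.5 to E15.5 and 5 from E15.5 to P7 in wild-type groups, and no member was left at E13.5. Centred on all genes, the lung median was -0.00266 and the E15.5 to P7 medians 1.84 in wild-type and 1.83 in knockout groups. Centred by transcript length, an alternative added after seeing the data, the lung median was -0.0418, 2 members were lower at E13.5 with a median of -0.43, and the knockout median from E13.5 to E15.5 was 0.61. The 10 genes most like the members shared 2 with the Spearman ranking and 2 with the linc-Brn1b groups alone. Counts of the general and the border and tissue macrophage lists moved too at E13.5 and in the Peril strain, as given beside them. Some counts of other lists also moved and are not all given. Why these values moved was not tested beyond what each setting does by construction. The missing spread between animals limits every comparison.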
